A study of Bos taurus with 4 samples.

Results

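MT2A, the gene of a metallothionein, was described across the nucleus types of cattle fat. It was 1 gene of the 21861 in the deposited matrices, where it is listed as ENSBTAG00000023659, and it was chosen by its measured levels in endothelial and progenitor nuclei. Those levels are therefore a description and carry no test. Single-nucleus RNA sequencing had been done on backfat, a subcutaneous depot, and on the fat inside muscle of 2 cattle, with 1 library per animal and depot and no treatment. The animals came from a commercial feedlot, and their diet, age and breed are unknown per the labels. Nuclei were freed with a Dounce homogenizer and made into 10x Genomics 3′ libraries. The libraries are called subcutaneous 1, subcutaneous 2, intramuscular 1 and intramuscular 2 below, where the number is the animal.

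Metallothioneins are small cysteine-rich proteins that bind zinc and copper and buffer their free levels in the cell. Their transcription is switched on by the zinc-sensing factor MTF1 and, for MT2A, also by the glucocorticoid receptor, so that metal load, stress hormones and oxidative stress all raise it. Endothelial cells line blood vessels, and adipose progenitors are the fibroblast-like cells from which new adipocytes form. MT2A, in the RefSeq gene table of ARS-UCD2.0 (the counts use a different build), lay between LOC613358 and MT3 and overlapped no other gene. Metallothionein genes are alike in sequence, so reads may be shared or lost between them, and how the counting treated such reads is not given in the sources used here.

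After filtering, the libraries held 874, 6126, 1774 and 63 nuclei in the order above, with 1138601, 4006966, 2717458 and 105481 UMIs (unique molecular identifiers, each standing for 1 captured RNA molecule) and medians of 849, 518, 1100.5 and 805 UMIs per nucleus. Intramuscular 2 stood apart by its size and by a mitochondrial share of 0.0133% of UMIs, against 1.24% to 1.65% in the other libraries. Muscle fibre markers took 4.89% and 19.3% of the UMIs of subcutaneous 1 and 2 but 0.00305% and 0.0114% of those of the intramuscular libraries, so the libraries labelled subcutaneous held the muscle RNA. At most 2 cell barcodes were shared between any pair of libraries.

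MT2A gave 436 UMIs in 239 of 8837 nuclei. Levels are given as CPM, the MT2A UMIs per 1000000 UMIs of the same nuclei. Subcutaneous 1 had 114 MT2A UMIs, or 100.1 CPM (95% exact Poisson interval 82.6 to 120.3). Subcutaneous 2 had 129, or 32.2 CPM (26.9 to 38.3), and intramuscular 1 had 193, or 71.0 CPM (61.4 to 81.8). Intramuscular 2 had 0, with an exact interval of 0 to 35.0 CPM. That interval lay below those of subcutaneous 1 and intramuscular 1 but overlapped that of subcutaneous 2. An MT2A UMI was found in 7.44% of the nuclei of subcutaneous 1, 1.5% in subcutaneous 2 and 4.62% in intramuscular 1. All intervals and limits cover counting error only.

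Nuclei were assigned to a type by marker genes. A nucleus needed at least 3 UMIs from at least 2 markers of a type, and at least 2 times as many as of any other type. Of the nuclei gated as endothelial, 436 of 447 (97.5%) lay in clusters that carried endothelial markers. For progenitors this held for 848 of 1215 (69.8%), so the progenitor gate was the looser one. Endothelial markers took 1.08%, 0.817% and 1.32% of UMIs in the endothelial nuclei of subcutaneous 1, subcutaneous 2 and intramuscular 1, and 0.0910%, 0.0438% and 0.0870% in the progenitor nuclei. Progenitor markers took 2.74%, 1.29% and 2.26% of UMIs in the progenitor nuclei and 0.184%, 0.0883% and 0.308% in the endothelial nuclei. Each type was richer in its own list than the other type was, which the gate on these same lists fixed in advance. Muscle fibre markers took more UMIs than the type's own list in the subcutaneous nuclei of both types.

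Endothelial nuclei of the subcutaneous libraries had the highest MT2A CPM of any gated type. For subcutaneous 2 this rank was not resolved, since its interval overlapped that of intramuscular 1 progenitor nuclei, at 174 CPM (143 to 210). As a mean over nuclei the order of those groups turned, at 121 against 191 CPM. In subcutaneous 1, 113 endothelial nuclei had 62 MT2A UMIs, a level of 309 CPM (237 to 396). In subcutaneous 2, 213 nuclei had 47 UMIs, a level of 190 CPM (139 to 252). In intramuscular 1, 120 nuclei had 3 UMIs, a level of 17.4 CPM (3.58 to 50.8). The intervals of the subcutaneous libraries both lay above that of intramuscular 1, and the level was 17.8 times (5.81 to 88.5) and 10.9 times (3.51 to 54.8) that of intramuscular 1. These intervals take UMIs as independent, while 1 nucleus held 20 of the 62 UMIs of subcutaneous 1. They describe single libraries and are no test of the depots. Intramuscular 2 held 1 endothelial nucleus and 5 progenitor nuclei, too few for a level.

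Among progenitor nuclei, those of intramuscular 1 had the highest level, while subcutaneous 1 was again above subcutaneous 2. Subcutaneous 1 had 29 MT2A UMIs in 285 progenitor nuclei, a level of 86.3 CPM (57.8 to 124). Subcutaneous 2 had 9 in 291, a level of 36.8 CPM (16.8 to 69.9). Intramuscular 1 had 109 in 634, a level of 174 CPM (143 to 210). The progenitor interval of intramuscular 1 lay above those of both subcutaneous libraries. Their levels were 0.495 times (0.317 to 0.751) and 0.211 times (0.0940 to 0.416) as high. These intervals take UMIs as independent, while 3 nuclei held 44 of the 109 UMIs of intramuscular 1.

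The endothelial level was 3.58 times the progenitor level in subcutaneous 1 (95% interval 2.27 to 5.77) and 5.15 times in subcutaneous 2 (2.49 to 11.95). In intramuscular 1 the progenitor level was 10.03 times the endothelial one (3.34 to 49.4). On the log2 scale, endothelial over progenitor was 1.84, 2.36 and -3.33, with a mean of 0.29 ± 3.15 (SD, n = 3 libraries), so the pooled mean describes none of the libraries. Each library kept its own direction under the other gates, clusters, depth filters and totals that were tried, as the plot of the ratio by setting shows.

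**Figure D1:**
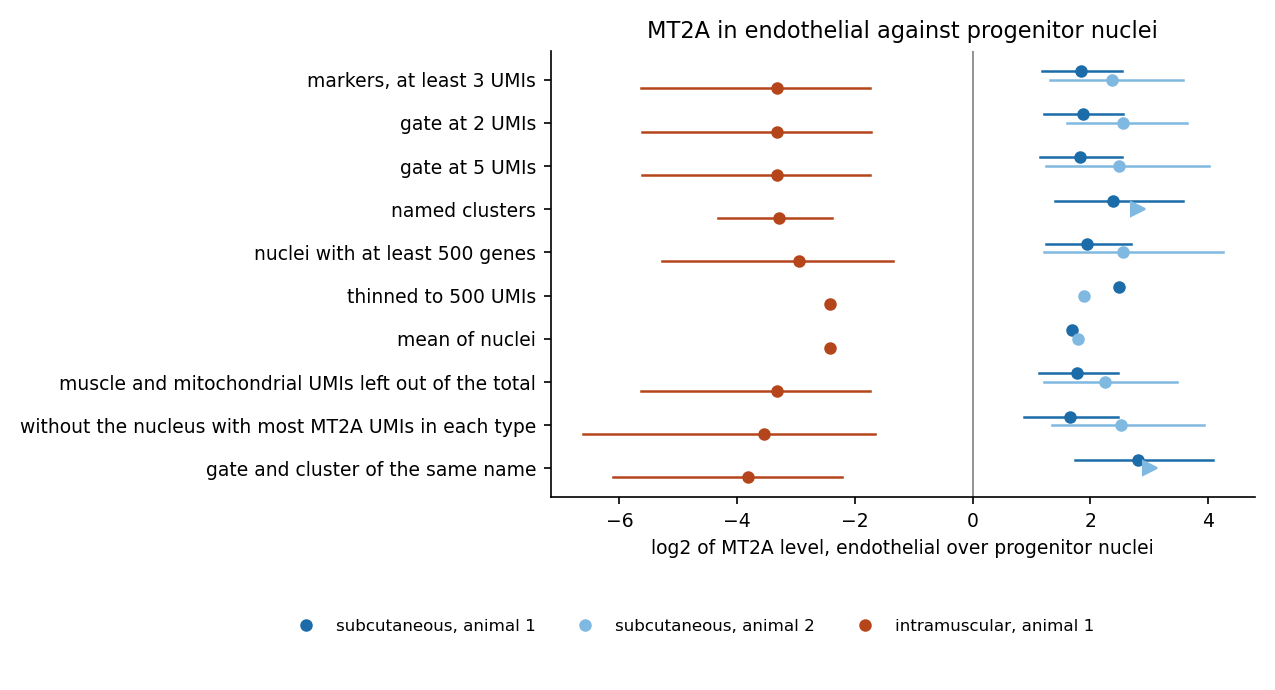
The x axis is the log2 ratio of the MT2A level in endothelial over progenitor nuclei, and each row is 1 way of choosing nuclei or scaling counts. Points are libraries, lines are 95% counting intervals where they can be computed, and triangles are lower bounds where a count was 0. All points of subcutaneous 1 and 2 lie right of 0 and all points of intramuscular 1 lie left of it.

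The other types were low. Adipocyte nuclei, the lipid-storing cells, had 46.3, 40.6 and 15.2 MT2A CPM in subcutaneous 1, subcutaneous 2 and intramuscular 1, from 2, 2 and 5 UMIs, and 0 in the 44 adipocyte nuclei of intramuscular 2. Muscle fibre nuclei had 62.1 CPM in subcutaneous 1 and 20.4 in subcutaneous 2. Mural nuclei, which wrap the vessels, had 43.2 CPM from 1 UMI in subcutaneous 1 and 0 UMIs in 115 nuclei of subcutaneous 2. The 24 macrophage nuclei of subcutaneous 1 had 0 UMIs, which allows up to 120.7 CPM.

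Over the subcutaneous libraries the order of the mean levels CPM was endothelial 249 ± 84.4, progenitor 61.5 ± 35.0, adipocyte 43.4 ± 4.05, muscle fibre 41.3 ± 29.5 and mural 21.6 ± 30.5 (SD, n = 2 each). The lower endothelial library, at 190 CPM, was above the higher progenitor library, at 86.3. Progenitor, adipocyte, muscle fibre and mural levels overlapped between libraries, so their order was not resolved. Within intramuscular 1, progenitor nuclei stood first, and the intervals of the endothelial (17.4) and adipocyte (15.2) levels overlapped.

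**Figure D2:**
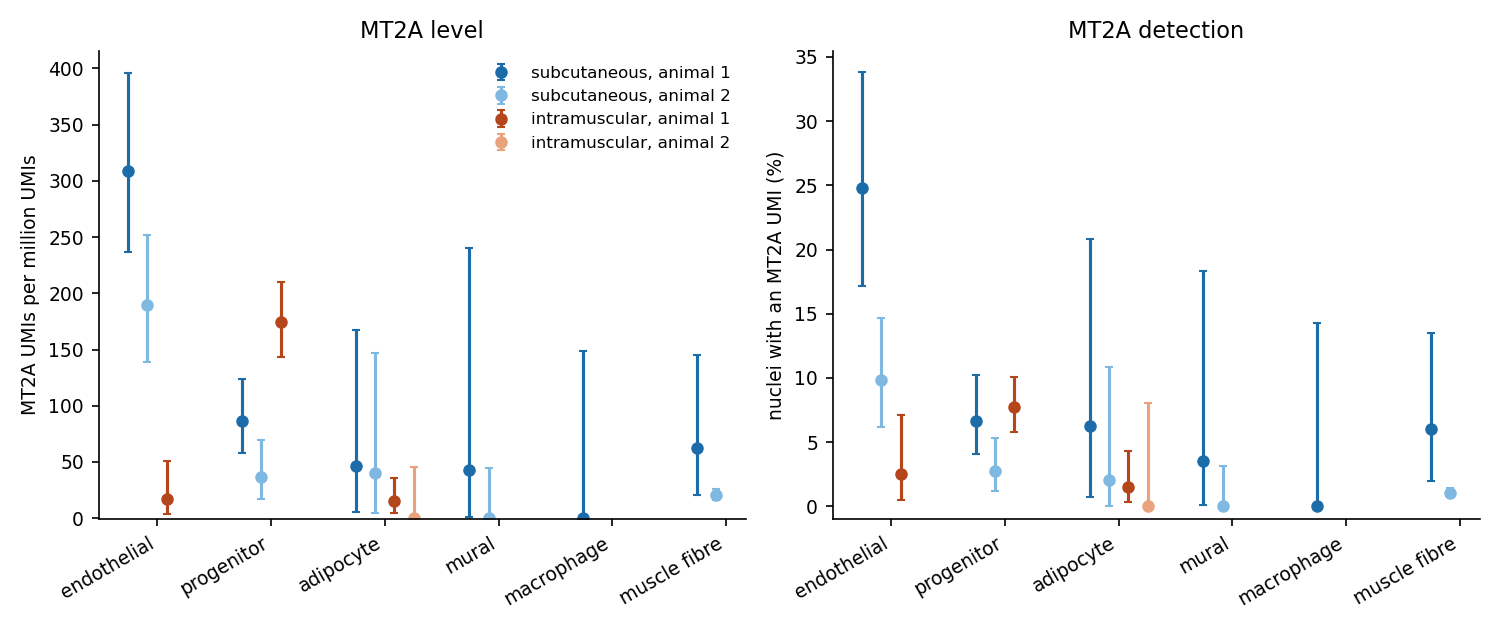
The left panel gives MT2A CPM and the right panel the percentage of nuclei with an MT2A UMI, by marker-gated type on the x axis and by library in colour. Bars are 95% exact intervals. The endothelial points of the subcutaneous libraries, at 309 and 190 CPM, are the highest, and the highest point of intramuscular 1 is its progenitor nuclei at 174.

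Detection followed the levels. An MT2A UMI was present in 24.8%, 9.86% and 2.50% of the endothelial nuclei of subcutaneous 1, subcutaneous 2 and intramuscular 1, and in 6.67%, 2.75% and 7.73% of the progenitor nuclei. Muscle fibre nuclei of subcutaneous 2, with the lowest share above 0 among the gated types, had an MT2A UMI in 1.08% of 5111 nuclei at a median depth of 504 UMIs, against 812 in the endothelial nuclei of that library. With every nucleus thinned to 500 UMIs and shallower nuclei left out (7, 36 and 0 endothelial and 35, 92 and 0 progenitor nuclei), the endothelial shares were 11.4%, 6.10% and 1.77% and the progenitor shares 2.19%, 1.67% and 4.94%. The order of endothelial and progenitor nuclei within each library was the same as before thinning.

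MT2A RNA was concentrated in few nuclei. Of the 239 nuclei with an MT2A UMI, 176 had exactly 1, and 14 nuclei with 5 or more held 141 of the 436 UMIs (32.3%). One endothelial nucleus of subcutaneous 1 held 20 UMIs, and without it the level there was 214 CPM in place of 309. In the progenitor nuclei of intramuscular 1, 35 nuclei had 1 UMI, while 3 nuclei held 44 of the 109 UMIs, and the highest had 24. Without that nucleus the level was 136 CPM. The variance of MT2A UMIs per nucleus was 8.11 times the mean there and 7.22 times in the endothelial nuclei of subcutaneous 1. The Poisson intervals of these levels are therefore too narrow. The 3 MT2A UMIs of intramuscular 1 endothelial nuclei came from 3 nuclei.

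**Figure D3:**
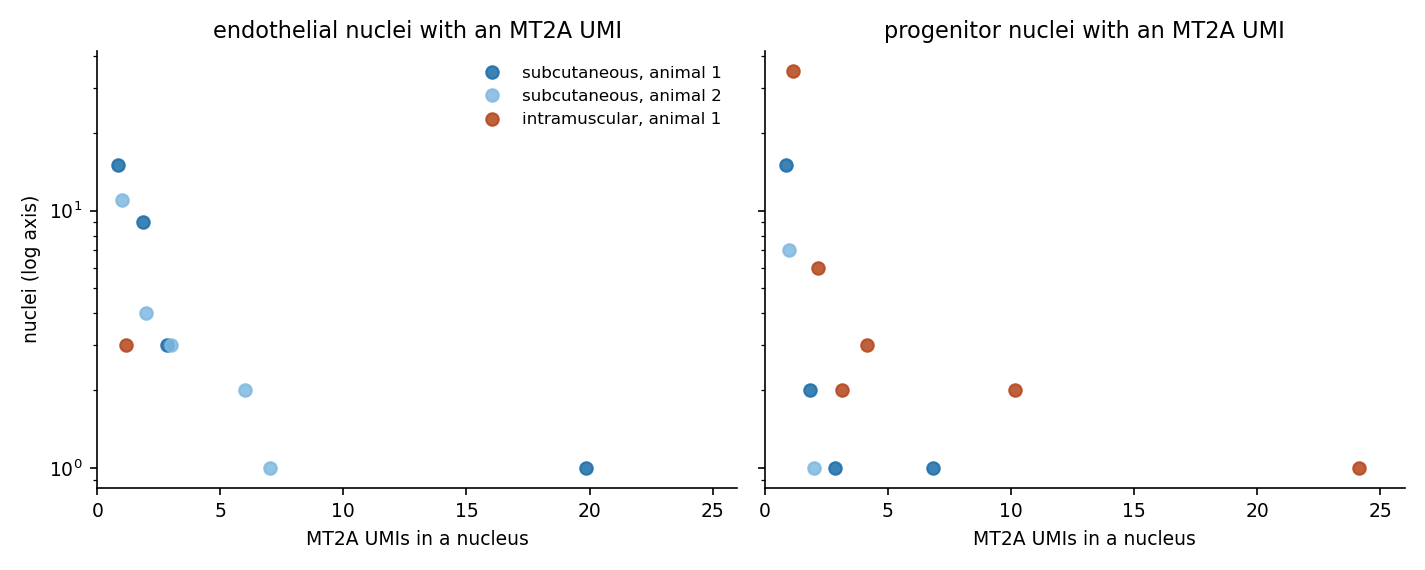
The x axis is the number of MT2A UMIs in a nucleus and the y axis, on a log scale, is the number of nuclei with that count, for endothelial nuclei (left) and progenitor nuclei (right), by library. Points are moved slightly sideways so that they do not hide each other. Most nuclei lie at 1 UMI, and single nuclei reach 20 in subcutaneous 1 and 24 in intramuscular 1.

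Endothelial nuclei were not uniform. The vessel wall has arterial, capillary and venous segments, and lists of their markers were summed beside MT2A. In subcutaneous 1, the 58 endothelial nuclei of cluster 11 had 55 MT2A UMIs, a level of 482 CPM (363 to 627), and 37.9% of them had an MT2A UMI. The 37 endothelial nuclei of cluster 10 in the same library had 1 UMI, or 14.5 CPM, and the 17 of cluster 14 had 6, or 360 CPM (132 to 783). Cluster 11 thus held 33.3 times the level of cluster 10, with a wide interval (5.73 to 1338).

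In subcutaneous 2, cluster 11 again held most of the RNA, with 43 UMIs in 81 nuclei, a level of 441 CPM (319 to 594). Its cluster 14 had 4 UMIs in 120 nuclei, or 28.9 CPM, so that cluster 11 was 15.3 times as high (5.55 to 58.6). Cluster 14 therefore differed between the subcutaneous libraries, at 360 against 28.9 CPM (7.87 to 74.0), with intervals that did not overlap. In intramuscular 1, 119 of the 120 endothelial nuclei were in cluster 10 and had 17.4 MT2A CPM. Over that cluster, subcutaneous 1 and intramuscular 1 did not differ beyond counting error, with a ratio of 0.830 (0.0158 to 10.3), an interval that allows large differences either way.

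The segment marker lists followed MT2A only in part. Capillary markers (such as RGCC, CA4 and GPIHBP1, the last the capillary anchor of lipoprotein lipase) took 0.867% and 1.07% of UMIs in the endothelial nuclei of cluster 10 in subcutaneous 1 and intramuscular 1. In cluster 11 they took 0.0131% and 0.00411%, while arterial markers (such as GJA5, SOX17 and DLL4) took 0.162% and 0.0985%. In cluster 14 the capillary markers took 0.0899% in subcutaneous 1 and 0.204% in subcutaneous 2. The capillary share was thus lower in every group at 360 MT2A CPM or above than in every group at 28.9 CPM or below. Arterial markers also took 0.120% in cluster 10 of intramuscular 1 and 0.0802% in cluster 14 of subcutaneous 2, where MT2A was low, and 0.0360% in cluster 14 of subcutaneous 1, where it was at 360 CPM. The arterial share alone thus did not follow the MT2A level. Venous markers (such as ACKR1 and SELP) were highest in cluster 14 of subcutaneous 1, at 0.474%. Markers of lymphatic endothelium took 0.168% there and 0.0275% in cluster 14 of subcutaneous 2. Cluster 11 was led by ACTG1, JUN, DSTN and ADAMTSL5 and held 0 nuclei of the intramuscular libraries, so segment, cluster and library cannot be told apart there.

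Nuclei were also sorted by these lists without clusters. Endothelial nuclei with UMIs of the arterial list only had 593 MT2A CPM in subcutaneous 1 (14 UMIs, 19 nuclei) and 249 in subcutaneous 2 (10 UMIs, 35 nuclei). Those with the capillary list only had 0 UMIs in 17 nuclei of subcutaneous 1, 1 UMI in 30 nuclei of subcutaneous 2, or 33.1 CPM, and 2 in 30 nuclei of intramuscular 1, or 90.5 CPM (11 to 327). Intramuscular 1 held 1 endothelial nucleus of the arterial-only kind, so the arterial level could not be compared between depots.

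**Figure D4:**
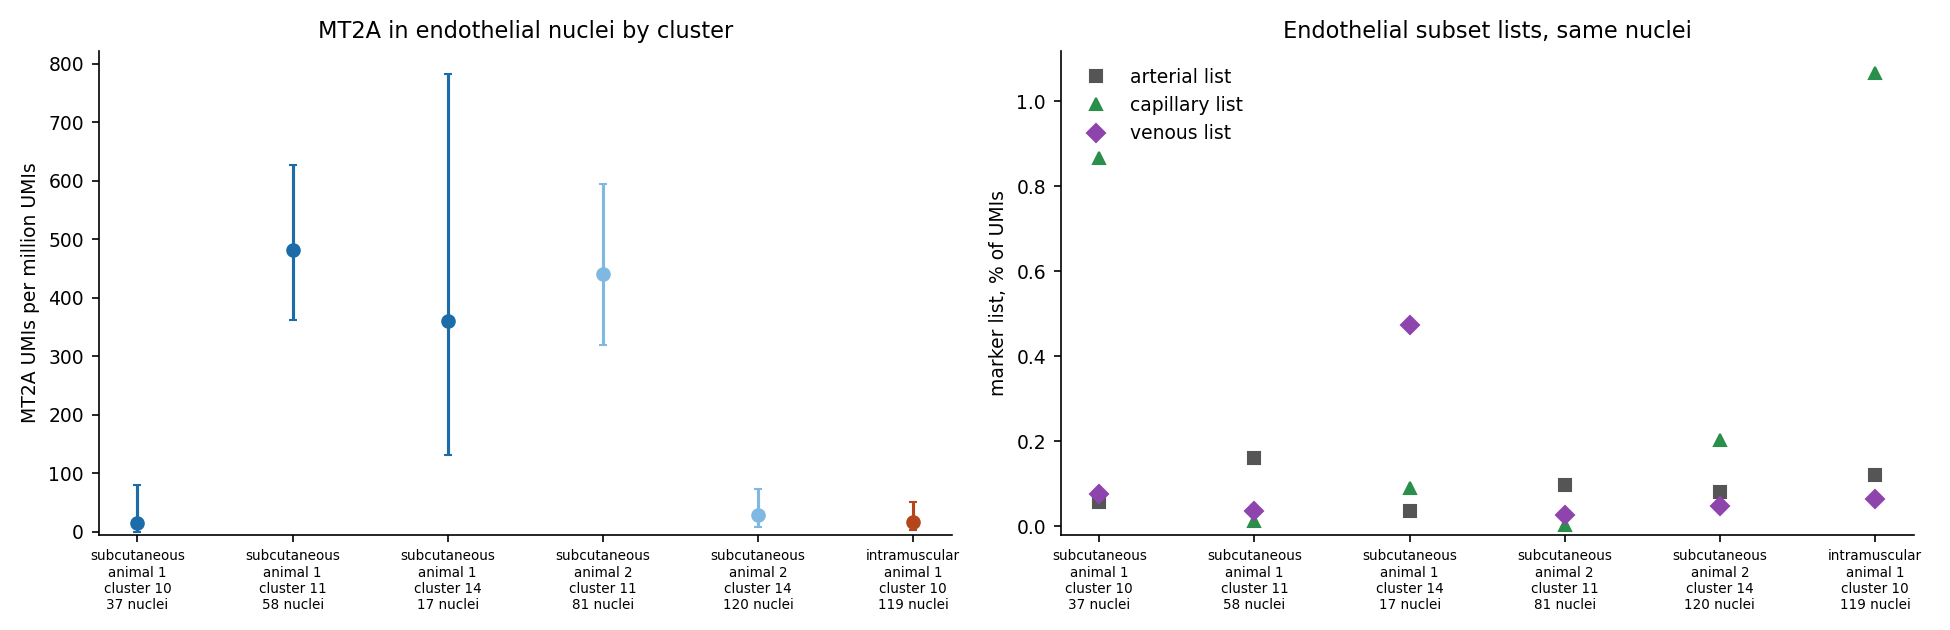
Endothelial nuclei are split by library and cluster on the x axis. The left panel gives MT2A CPM with 95% exact Poisson intervals, and the right panel gives the share of UMIs (%) from the arterial, capillary and venous marker lists in the same nuclei. MT2A is at 482 and 441 CPM in cluster 11, where the capillary share is lowest, and at 14.5 and 17.4 in cluster 10, where it is highest.

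Progenitor nuclei also fell into clusters that went with the library. Cluster 1 held 168 gated progenitor nuclei of subcutaneous 1, with 8 MT2A UMIs or 45.5 CPM (19.7 to 89.7), and 166 of subcutaneous 2, with 0 UMIs, which allows up to 24.3 CPM. Cluster 2 held 500 of intramuscular 1, with 98 UMIs or 247 CPM (200 to 301). That level was 5.42 times (2.64 to 12.9) that of subcutaneous 1, and at least 10.1-fold higher than that of subcutaneous 2 against its 3-count limit. Of the 29 MT2A UMIs in gated progenitor nuclei of subcutaneous 1, 8 lay in 8 nuclei of cluster 10 and 4 in 7 nuclei of cluster 11, both endothelial. Nuclei with both the gate and the cluster of the same name had an endothelial level 7.0 times the progenitor level in subcutaneous 1, against 3.58 by the gate alone.

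Markers of other types moved with the library. Muscle fibre markers took 1.09%, 7.24% and 0.00174% of UMIs in the endothelial nuclei of subcutaneous 1, subcutaneous 2 and intramuscular 1, with 17, 17 and 3 of the 17 markers seen, and 5.14%, 13.8% and 0.00608% in the progenitor nuclei, with 17, 17 and 7 seen. Adipocyte markers took 0.0628%, 0.0238% and 0.229% in endothelial and 0.199%, 0.0221% and 0.377% in progenitor nuclei. With muscle and mitochondrial UMIs left out of the totals, the log2 ratios of endothelial over progenitor MT2A were 1.78, 2.25 and -3.33. The part of the adipocyte RNA in these levels was not tested.

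The depots themselves were compared on summed UMIs with edgeR's quasi-likelihood test, in which p-values were adjusted over all genes by Benjamini-Hochberg. Over whole libraries, MT2A was at 66.2 ± 48.0 CPM in subcutaneous and 35.5 ± 50.2 in intramuscular fat (SD, n = 2 each). The difference of -30.6 CPM gave p = 0.667 by an exact two-sided permutation test, whose smallest possible p is 0.33. The edgeR log2 fold change, intramuscular over subcutaneous, was -1.03 (SE 0.96, adjusted p = 0.758), where 1.53% of 11143 genes passed. Of the 170 genes that passed, 164 were lower in intramuscular fat. With muscle fibre and ungated nuclei left out, 0 of 8705 genes passed and MT2A was at -0.96. Muscle fibre nuclei were 83.4% of subcutaneous 2 and adipocyte nuclei 69.8% of intramuscular 2. Depot and the mix of nucleus types cannot be told apart in whole libraries. The MT2A levels of the depots overlapped, since intramuscular 1 (71.0) lay between the subcutaneous libraries (100.1 and 32.2).

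Within types, the levels that chose MT2A are the ones a depot comparison would use, so fitted values are given without a test. In endothelial nuclei the log2 fold change, intramuscular over subcutaneous, was -3.72, and in progenitor nuclei it was 1.35. Both rest on intramuscular 1 alone, whose own spread cannot be measured, so no error is given with them. The endothelial and progenitor values thus had opposite signs, from 3 and 109 MT2A UMIs in intramuscular 1. In adipocyte nuclei MT2A was below the count filter.

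The other metallothioneins were rare. The features hold 5 more of them, and MT1A was the most frequent with 31 UMIs in 25 nuclei, of which 12 also held MT2A. MT1A was at 64.8 CPM (34.5 to 111) in the endothelial nuclei of subcutaneous 1, from 13 UMIs, and at 24.2 (8.88 to 52.7) in those of subcutaneous 2, from 6. It had 0 UMIs in the endothelial and in the progenitor nuclei of intramuscular 1, which allows up to 17.4 and 4.80 CPM. Of the paired features named MT1E, ENSBTAG00000001595 had 6 UMIs, 5 of them in endothelial nuclei of subcutaneous 2, and ENSBTAG00000038706 had 1.

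MT1A and the first MT1E feature thus had most of their UMIs in subcutaneous endothelial nuclei. The progenitor nuclei of intramuscular 1 held 109 MT2A UMIs but 0 of MT1A. MT3, the metallothionein best known from the brain, had 22 UMIs in 16 nuclei, and 0 of those nuclei held MT2A. MT4, known from stratified epithelium, had 0 UMIs. Read sharing between these copies was not tested.

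Genes that sense or carry metals were compared between endothelial and progenitor nuclei in 3 libraries, with the library as a block, where 11.3% of 5922 genes were called higher and 12.2% lower in endothelial nuclei. Of 5 zinc transporters tested out of 24 in the features, 0 were called in either direction. Among 10 of 16 genes of metal regulation and copper handling, 2 were higher and 1 was lower. CCS, the copper chaperone that loads superoxide dismutase, rose by 1.74 on the log2 scale (SE 0.34, edgeR adjusted p = 0.00107), from 56.5, 65.4 and 57.6 CPM in progenitor nuclei to 219, 161 and 226 in endothelial nuclei of subcutaneous 1, subcutaneous 2 and intramuscular 1. It was higher in all 3 libraries, unlike MT2A.

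ATP7A, a copper-exporting ATPase, was higher in endothelial nuclei by 1.41 (SE 0.35, edgeR adjusted p = 0.00642). SLC40A1, the iron exporter ferroportin, was lower, with a log2 fold change of -1.72 (SE 0.45, edgeR adjusted p = 0.00981), at 19.9 against 68.4 CPM in subcutaneous 1, 4.03 against 73.6 in subcutaneous 2 and 98.5 against 208 in intramuscular 1. The median log2 fold change of this list was 0.58, beside -0.12 over all genes tested. SLC30A9 and SLC39A13, the zinc transporters with the smallest p, were at -0.71 (adjusted p = 0.367 by edgeR) and -0.35 (adjusted p = 0.574 by edgeR).

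The factors that switch MT2A on were measured beside it. MTF1, the zinc sensor, was too rare to test, with 14.9, 24.2 and 17.4 CPM in endothelial and 14.9, 20.4 and 28.8 in progenitor nuclei of the 3 libraries, from 3 to 18 UMIs each. Its intervals overlapped between the types in every library. NR3C1, the glucocorticoid receptor, was at 344, 274 and 574 CPM in endothelial and 521, 417 and 587 in progenitor nuclei, a log2 fold change of -0.42 (SE 0.36, adjusted p = 0.428 by edgeR).

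Over all 5922 genes tested, 11.3% were called higher and 12.2% lower in endothelial nuclei. Of 13 glucocorticoid response genes tested, 1 was higher in endothelial nuclei and 0 were lower. It was DUSP1, a phosphatase that switches off MAP kinases, at 1.78 (SE 0.51, edgeR adjusted p = 0.0172), with 3338 against 818, 2520 against 323 and 3001 against 2248 CPM. Of 18 immediate early genes, which respond within minutes to stimuli and to tissue handling, IER2 (1.33, edgeR adjusted p = 0.0458) and ATF3 (1.23, edgeR adjusted p = 0.0454) were higher. Of 9 oxidative stress genes and 13 heat shock genes, 0 were called, so none of these lists exceeded the share over all genes. SOD2, the mitochondrial superoxide dismutase, was at -1.12 (edgeR adjusted p = 0.0642) and CRYAB, a small heat shock protein, at -1.22 (edgeR adjusted p = 0.0546).

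**Figure D5:**
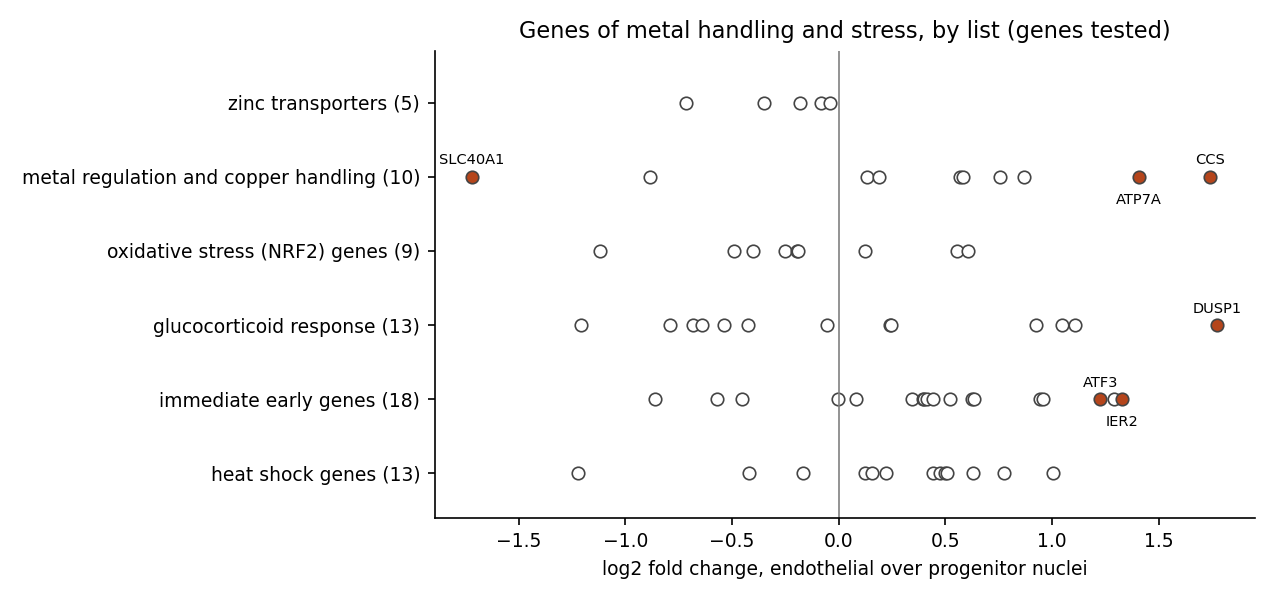
Each point is a gene, placed by its log2 fold change, endothelial over progenitor nuclei, with 1 row per list and the number of genes tested in brackets. Filled points passed an adjusted p of 0.05 in edgeR and are named. CCS (1.74) and ATP7A (1.41) lie right of 0 and SLC40A1 (-1.72) left of it, while 0 zinc transporters passed.

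Between depots, within endothelial nuclei, 0 of 3 zinc transporters, 0 of 9 metal and copper genes, 0 of 8 oxidative stress genes and 0 of 13 heat shock genes were called, where 1.46% of all 5131 genes were called higher and 2.3% lower in intramuscular fat. Intramuscular 1 alone was set against both subcutaneous libraries, so the spread came from the latter. Cluster 10 held 119 of its 120 endothelial nuclei, so depot and endothelial cluster cannot be told apart in these values. Of the 12 glucocorticoid response genes, those called were higher in intramuscular 1, namely ANGPTL4, an inhibitor of lipoprotein lipase (3.41, SE 0.62), and CEBPD (2.80, SE 0.59). Of the 19 immediate early genes, BTG2, FOS, FOSB and MYC were called, all higher there, and MYC changed most of these (4.12, SE 0.58). Progenitor nuclei had 0.433% of 7382 genes called higher in intramuscular 1. These included BTG2 (3.40), of the 19 immediate early genes, and ERRFI1 (2.44), of the 14 glucocorticoid response genes. With the gate at 2 marker UMIs, edgeR called 0 genes in either type.

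The genes whose pattern was most like MT2A were found by Pearson's r over 14 sums of library and type, each centred on its library, among 4209 genes with a mean of at least 50 CPM. The sums of a library share its depth and its free RNA, so r is a description. ADAMTSL5, which encodes a secreted protein of the microfibril network, came first with r = 0.93, followed by CLINT1 (0.84), CNRIP1 (0.82), SELENOS (0.81), SCARA5 (0.80) and JUP (0.79). The median r over all genes was 0.08, and 4 genes reached 0.8. ADAMTSL5 was at 643, 556 and 11.6 CPM in the endothelial nuclei of subcutaneous 1, subcutaneous 2 and intramuscular 1 and at 277, 127 and 52.8 in the progenitor nuclei. It thus shared with MT2A the turn of the endothelial to progenitor order. CLINT1 and SELENOS had the directions of MT2A in each library, but the others did not. Endothelial against progenitor CPM was 324 against 464 for SCARA5 in subcutaneous 1, 76.6 against 106 for CNRIP1 in subcutaneous 2 and 151 against 123 for JUP in intramuscular 1.

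That turn was uncommon. Among 6205 genes with at least 10 UMIs over both types in each library, 18 genes (0.29%), MT2A included, were at least 2-fold higher in endothelial than in progenitor nuclei of both subcutaneous libraries and at least 2-fold lower in intramuscular 1. The reverse turn was seen in 3 genes. The 18 genes, chosen by that rule after values were seen, include KLF2, a flow-responsive factor of endothelium, DKK2, a secreted modulator of WNT signalling, the small GTPase RND3 and the early response gene IER3. The pattern was taken from the MT2A values, so the place of MT2A among the 18 was fixed in advance. No test was made on these genes.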

How the data were processed

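Each library came as 1 deposited matrix of UMI counts, unnormalised, made with Cell Ranger 6.0.1 per the file headers. The build was ARS-UCD1.2, per the submitters' processing notes. Which annotation was used, and whether intronic reads counted, is not given in the sources used here. Barcodes with at least 200 detected genes and under 10% mitochondrial UMIs were kept. Doublets were neither called nor removed. MT2A and all lists were chosen with earlier results of these data known.

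Levels are CPM with exact Poisson intervals, and shares have exact Clopper-Pearson intervals, both at 95%. A count of 0 was read as allowing 3. Types were gated on marker sums. Muscle fibre nuclei had under 3 UMIs of each other list and at least 10% muscle fibre UMIs, and all other nuclei were ungated. Clusters were made with scanpy 1.11.5 (Leiden). UMIs were summed per library and type, from at least 10 nuclei, and tested with edgeR 4.0.16 (filterByExpr, TMM, quasi-likelihood) in R 4.3.3, with DESeq2 1.42.0 as an alternative. The fits were tested on simulated data. Depot tests of MT2A within types were planned and run, but their p-values are not given, since the levels tested chose the gene. The adjusted p threshold was 0.05. The text names MT2A, all metallothioneins, MTF1, NR3C1, up to 4 called members per direction of each list or else the 2 with the smallest p, and the 6 genes most like MT2A by r of log2(level + 10). Members of a list called between depots were named after their values were seen.

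Replicate numbers pair the libraries, since the titles give the animal. The correlation of deviations from the depot means was -0.09 for both animals, which mirror each other in a design of 2 against 2. The alternatives were other gates, clusters, gene filters, scalings, the animal as a block, and each library left out. Libraries of a depot came from separate animals.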

Additional observations from a re-analysis of the deposited data

Results flagged for a closer look

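The endothelial to progenitor ratio of MT2A pointed in opposite directions in the subcutaneous libraries and in intramuscular 1. On the log2 scale it was 1.84 and 2.36 in subcutaneous 1 and 2 and -3.33 in intramuscular 1. The difference between the depots was not tested, since 1 intramuscular library had enough nuclei of both types. Cluster 11 held 55 of the 62 endothelial MT2A UMIs of subcutaneous 1 and 43 of the 47 of subcutaneous 2. It held 0 intramuscular nuclei, so depot and endothelial cluster cannot be told apart in this ratio.

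MT2A was also found in nuclei that no gate assigned, which enter no comparison above. The ungated nuclei had 34.9 CPM in subcutaneous 1, 28.9 in subcutaneous 2 and 48.0 in intramuscular 1, and 0 in the 13 of intramuscular 2. In intramuscular 1, 5 of 812 ungated nuclei held 46 of the 76 UMIs.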

How the results depend on the processing

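Of 74 alternative values, 4 reversed in sign. The log2 ratio of endothelial over progenitor MT2A kept its sign in each library under all 9 alternatives run, and was 2.81 in subcutaneous 1 for nuclei with gate and cluster of the same name, an alternative chosen after seeing the data. Its mean over libraries (0.29) ran from -0.743 to 2.10 with 1 library left out, and reversed to -0.481 without subcutaneous 1 and -0.743 without subcutaneous 2. The whole-library difference (-30.6 CPM) ran from -66.2 to 4.86, and reversed to 3.32 without subcutaneous 1 and 4.86 without intramuscular 2. The endothelial depot fold change was -3.79 in DESeq2 and -3.66 with a gate at 2 UMIs. The fitted error was larger in DESeq2 than in edgeR, in endothelial and in progenitor nuclei. Near-equal fold changes therefore do not show that the fits were equally firm. Genes called between endothelial and progenitor nuclei numbered 1393, against 797 in DESeq2, 425 with no replicate block for the library, and 565 to 1090 with 1 library left out, the lowest without subcutaneous 1. Genes called between depots ranged from 0 to 353 in endothelial nuclei (193 as reported), 0 to 403 in progenitor nuclei (198) and 0 to 444 in whole libraries (170). With the replicate block for the animal, the whole-library log2 fold change was -1.73 (SE 1.12, edgeR adjusted p = 0.906), and in endothelial and progenitor nuclei it was -3.95 and 1.05 with no residual degrees of freedom, so the block could be tested in whole libraries only, where MT2A passed neither with nor without it. Leaving out a subcutaneous library left those types with no residual degrees of freedom either. In adipocyte nuclei MT2A had a value only without the count filter (-1.73, edgeR adjusted p = 0.949). Levels under about 10 UMIs are limited by counting error.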

Other observations

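Single clusters that carried muscle fibre or adipocyte markers differed in MT2A. Cluster 13, led by ACTA1, C1QTNF3, DTX4 and CHRNA1, the last a subunit of the acetylcholine receptor of the neuromuscular junction, had 282 MT2A CPM in subcutaneous 1 (4 UMIs, 10 nuclei) and 156 (71.4 to 296) in subcutaneous 2 (9 UMIs, 84 nuclei). Gated progenitor nuclei were 7 of those 10 nuclei, with 3 of the 4 UMIs, and 17 of those 84, with 3 of the 9 UMIs. The leading genes of cluster 13 also included CHODL, a marker of muscle satellite cells, and LAMA2, a progenitor marker. Its level is thus not that of muscle fibre nuclei alone. The larger muscle fibre cluster 8 had 18.6 CPM (11 to 29.4) in subcutaneous 2. Cluster 17, with adipocyte markers, had 47.9 CPM (38.0 to 59.5) in intramuscular 1, from 81 UMIs in 31 of 752 nuclei, where 5 nuclei held 46 of them. Its level was above the 15.2 CPM of the gated adipocyte nuclei, of which 0 had 5 or more MT2A UMIs. Those 5 nuclei of cluster 17 were ungated and are the same 5 described above, so they were not adipocyte nuclei by the gate.

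Nuclei with an MT2A UMI were deeper than those without, with medians of 1708.5 against 889 UMIs in the endothelial nuclei of subcutaneous 1 and 1678 against 759 in those of subcutaneous 2. Immediate early genes took 1.13% of UMIs in the MT2A-positive and 1.29% in the MT2A-negative endothelial nuclei of subcutaneous 1. In subcutaneous 2 the shares were 2.29% and 1.29%, and in the progenitor nuclei of intramuscular 1 they were 3.32% and 3.19%. Glucocorticoid response genes took 0.440% against 0.895% in subcutaneous 1 and 0.380% against 0.466% in subcutaneous 2 endothelial nuclei, but 0.778% against 0.407% in the progenitor nuclei of subcutaneous 1 and 0.698% against 0.609% in those of intramuscular 1, so the direction differed between the types.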
